A study of Mus musculus with 45 samples.

Results

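Vehicle-treated Il10 knockout colon was sequenced in 2 cohorts of this study, and the levels of colitis genes were set side by side between them. The libraries were taken by their titles: 5 that carry the label day 77 with vehicle, and 10 knockout vehicle libraries of the first cohort, 15 of the 45 libraries of the series. All 15 came from distal colon of mice with the IL10 knockout genotype, and none had received the study's GPR4 antagonist or its antibody to p40. The labels do not say from which event day 77 was counted, and they give no day for the first cohort. Strain, age, housing, the composition of the vehicle and whether each library was a separate animal are also not given, so a p-value here reflects variation from library to library, part of which may be technical. The groups lie in separate count tables, and cohort, time, housing and sequencing run cannot be told apart in any difference below. The 8 untreated wild-type libraries of the first cohort served as a scale for the size of the colitis changes. Comparisons of day 77 vehicle with wild type therefore also cross cohorts, and both comparisons with wild type share those libraries.

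Interleukin 10 restrains macrophages and T cells that meet gut bacteria, and mice without it develop a chronic colitis of the T helper 1 and T helper 17 type. Interferon gamma from T cells then switches on antigen presentation, chemokines and guanylate-binding proteins in epithelium and macrophages, while interleukins 17 and 22 act on the epithelium to produce antimicrobial proteins and oxidases. The absorptive colonocytes, which take up water and salt and burn fatty acids, often lose part of their programme in inflamed colon. Disease in this strain is known to vary with age, bacteria and housing.

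Il10 (chromosome 1, 131019845 to 131024974, GRCm38) held 0 counts in every one of the 15 libraries, against 10 counts over the 8 wild-type libraries. The depth allowed at most 0.129 CPM (counts scaled to a common library size) in the shallowest library of the first cohort and 0.127 CPM in that of day 77, since 0 counts are compatible with up to 3. Total counts ran from 23215057 to 27824876 in the first cohort and from 23631595 to 36279774 at day 77. Genes with at least 1 count numbered 19887 to 20837 and 21406 to 22870, with no overlap. The Y-linked helicase gene Ddx3y lay between 31.6 and 62.1 CPM in all 15 libraries, and Xist, the RNA of the inactive X chromosome, did not exceed 1.36 CPM.

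Several libraries stood apart from the rest of their group. On the first principal component over both vehicle groups and wild type, which held 52.5% of the variance, wild type spanned -64.6 to -36.8 and day 77 vehicle 19.0 to 67.4. First-cohort vehicle spanned -38.1 to 82.2: replicate 3 lay at the wild-type edge and replicate 2 at the far end, while day 77 replicate 3 stood furthest out of its own group. Wild type was not free of RNA of pancreatic acinar cells. Cela2a, an acinar elastase, reached 1184 CPM in the highest wild-type library (median 0.199). Among the vehicle libraries, first-cohort replicates 1, 3, 6 and 10 held such RNA. Cpb1, an acinar carboxypeptidase, reached 343, 114, 921 and 37.7 CPM there relative to total counts, against at most 2.9 CPM in the other first-cohort libraries and 0.307 CPM at day 77. With these 4 libraries left out 1022 genes were called in place of 1457 in the comparison below, 410 higher and 612 lower, with 68 and 17 in the sets of colitis genes higher and lower.

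For most genes the data held the difference between the vehicle groups within 2-fold. Within 1.5-fold they held it for 7625 of the 16776 genes tested. Of 16776 genes tested with edgeR, 708 (4.22%) were higher and 749 (4.46%) were lower at day 77 at an adjusted p under 0.05, together 8.69%. The 95% interval of the log2 difference lay wholly within 2-fold in either direction for 12039 genes (71.8%), called bounded here, and 981 genes were both called and bounded. For the remaining 4261 genes the data neither called a difference nor bounded it. A called difference of at least 2-fold was found for 126 genes higher and 148 lower. All 5 day 77 libraries lay above all 10 first-cohort libraries for 326 genes (1.94%) and below them for 191 (1.14%). These counts moved with the day 77 replicates: 866, 650, 772 and 942 genes were called without replicates 1, 2, 4 and 5.

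To ask about colitis genes as such, a reference set was taken from libraries of neither vehicle group. Those libraries lie in the count table of the first cohort, so the choice can favour genes changed in that cohort. It held the genes called and changed at least 2-fold between knockout colon given 30 mg/kg of the antagonist (9 libraries) and wild type (8), 854 higher (5.23% of those tested) and 747 lower (4.58%). A further library was left out because its title and its treatment label give different doses. Of the 853 higher genes that could be tested between the vehicle groups, 38 (4.455%) were lower at day 77, against 4.465% of all genes. Only 15 (1.758%) were higher, against 4.22%. How far the shared cohort shaped this split was not tested. Among the 38 were Aqp8, Slc9a3, Dpep1, Fabp2 and Alpi, which are described below with the epithelial genes. The called share of the higher set was 6.21%, against 8.69% of all genes, and 325 (38.1%) were bounded, against 71.8% of all genes. Their median log2 difference was -0.07, beside a median log2 difference from wild type of 1.82 in the first cohort and 1.81 at day 77. The same wild-type libraries chose these genes, so the choice itself fixes part of both values. Against wild type 25.2% of all genes were called higher and 24.1% lower in the first cohort, and 28.4% and 27.3% at day 77. Of the 15 that were higher at day 77, 9 were immunoglobulin variable segments. Whether reads were split among similar segments was not tested. Of the 700 testable genes of the lower set 10 (1.43%) were higher and 4 (0.571%) lower at day 77. That made 2% called, against 8.69% of all genes. In that set 154 (22%) were bounded, against 71.8% of all genes, and 532 were neither called nor bounded. Its medians from wild type were -1.22 in the first cohort and -1.34 at day 77. Without first-cohort replicate 3 the called genes were 100 and 31 in the higher and lower sets, in place of 53 and 14. The lower set had 3 without day 77 replicate 4, 4 without replicate 2, 6 without first-cohort replicate 6 and 7 without replicate 5; it had 8 or 9 without first-cohort replicates 7, 9 or 10 or day 77 replicate 1. Without day 77 replicates 1, 2, 4 or 5 those of the higher set were 19 to 26, and without first-cohort replicate 6 they were 35.

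**Figure D1:**
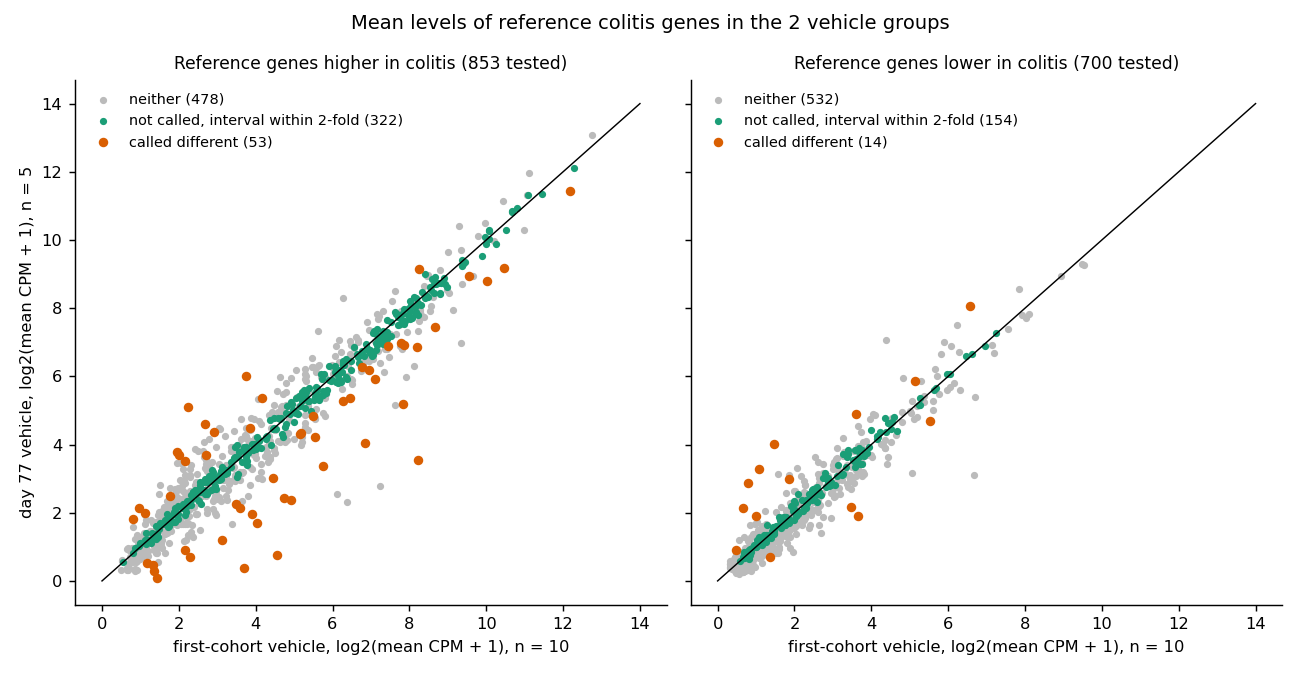
Mean level of each reference colitis gene in first-cohort vehicle (x axis, n = 10) and day 77 vehicle (y axis, n = 5), as log2(mean CPM + 1), with the line of equal levels. Of 853 genes higher in colitis, 53 were called different (orange), 322 were bounded without being called (green) and 478 were neither (grey); the corresponding counts among 700 lower genes were 14, 154 and 532.

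The interferon gamma and antigen presentation genes were not separated between the groups, and most MHC genes were bounded. None of the 34 genes of the T helper 1 and interferon gamma list, none of 10 MHC class II genes and none of 17 MHC class I genes was called, against 8.69% of all genes. Bounded were 17 (50%), 8 (80%) and 16 (94.1%) of them, against 71.8% of all genes. The other 17 genes of the T helper 1 list were neither called nor bounded, so that list agreed less often than genes at large. The median log2 differences were -0.09, -0.09 and 0.18, against -0.01 over all genes. Cd74, the invariant chain that guides MHC class II molecules, measured 2828, 2456, 2793, 2446 and 2561 CPM in day 77 replicates 1 to 5. First-cohort libraries held 699 to 3633 CPM (median 2862) and wild type 167 to 403 CPM (median 302), so the day 77 values fell inside the first-cohort range and far above wild type. The log2 difference was -0.09 ± 0.25 (SE), with a 95% interval of -0.61 to 0.43.

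The class II chain H2-Aa measured 646, 577, 602, 618 and 596 CPM at day 77 and 185 to 900.0 CPM (median 646) in the first cohort, an interval of -0.64 to 0.40 on the log2 scale. Also bounded were the class II chain H2-Eb1 (0.28), the class I molecule H2-T23 (-0.12) and Psme1 (0.02), an activator of the proteasome. For the class I heavy chain H2-D1 the day 77 values were 1701, 1676, 2508, 1683 and 1593 CPM and the first-cohort range 648 to 2182 CPM (median 1666), with replicate 3 of day 77 above all first-cohort libraries. The interferon-induced transcription factors Irf1 and Irf8 differed by -0.15 (interval -0.66 to 0.36) and 0.01 (interval -0.43 to 0.45) on the log2 scale. The chemokine gene Cxcl9, which attracts T cells, and the GTPase gene Iigp1 were not called either, but their intervals were wider, -1.34 to 1.79 and -1.56 to 1.10. Cxcl9 measured 24.3, 21.8, 142, 30.3 and 18.1 CPM at day 77 against 1.61 to 156 CPM (median 29.4) in the first cohort. Ifng itself was low, 0.622, 0.41, 3.91, 0.746 and 0.271 CPM against 0.209 to 9.86 CPM (median 0.718), and its difference was not bounded at this depth and spread.

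T cell genes, proliferation genes and the receptors that sense protons were also mostly bounded, the T cell genes no more often than genes at large. Of 20 T cell genes none was called, against 8.69% of all genes, and 13 (65%) were bounded, against 71.8%. Cd3e, a signalling chain of the T cell receptor, measured 6.29, 3.94, 6.36, 5.67 and 4.48 CPM at day 77 and 2.72 to 7.03 CPM (median 4.46) in the first cohort, against 0.398 to 1.82 CPM (median 1.51) in wild type. Among 17 proliferation genes 16 were bounded, and the 1 called gene, the mitotic cyclin Ccnb2, was higher at day 77 (log2 difference 0.68 ± 0.16, adjusted p = 0.0193), a call lost without day 77 replicate 2. All 4 proton-sensing receptor genes were bounded. Gpr65, found on leukocytes, differed by 0.28 (interval -0.35 to 0.91) and Gpr4, the target of the study's compound and found on endothelium, by 0.19 (interval -0.45 to 0.82). Of 17 sterol synthesis genes 14 (82.4%) were bounded, of 19 circadian clock genes 14 (73.7%), and of 16 hypoxia and glycolysis genes 11 (68.8%), with no called member. The clock and hypoxia shares were close to the 71.8% of all genes.

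For plasma cells, whose antibodies coat gut bacteria, none of 17 genes was called and 6 (35.3%) were bounded, against 71.8% of all genes. Jchain, the chain that joins IgA units, measured 1185, 828, 1246, 1058 and 1138 CPM at day 77 and 314 to 2104 CPM (median 786) in the first cohort. Igha, the IgA heavy chain, measured 4234, 2805, 3957, 4353 and 4636 CPM at day 77 and 811 to 5260 CPM (median 1687) in the first cohort, with a log2 difference of 0.85 ± 0.35 that missed the threshold (adjusted p = 0.141). Of 17 B cell and follicle genes 16 lay below 0, with a median of -0.62, but none was called. Of 127 immunoglobulin variable segments tested, which encode the antigen-binding part of antibodies, 15 (11.8%) were higher and 1 (0.787%) lower at day 77, against 4.22% and 4.46% of all genes, with a median of 0.92 and none bounded.

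**Figure D2:**
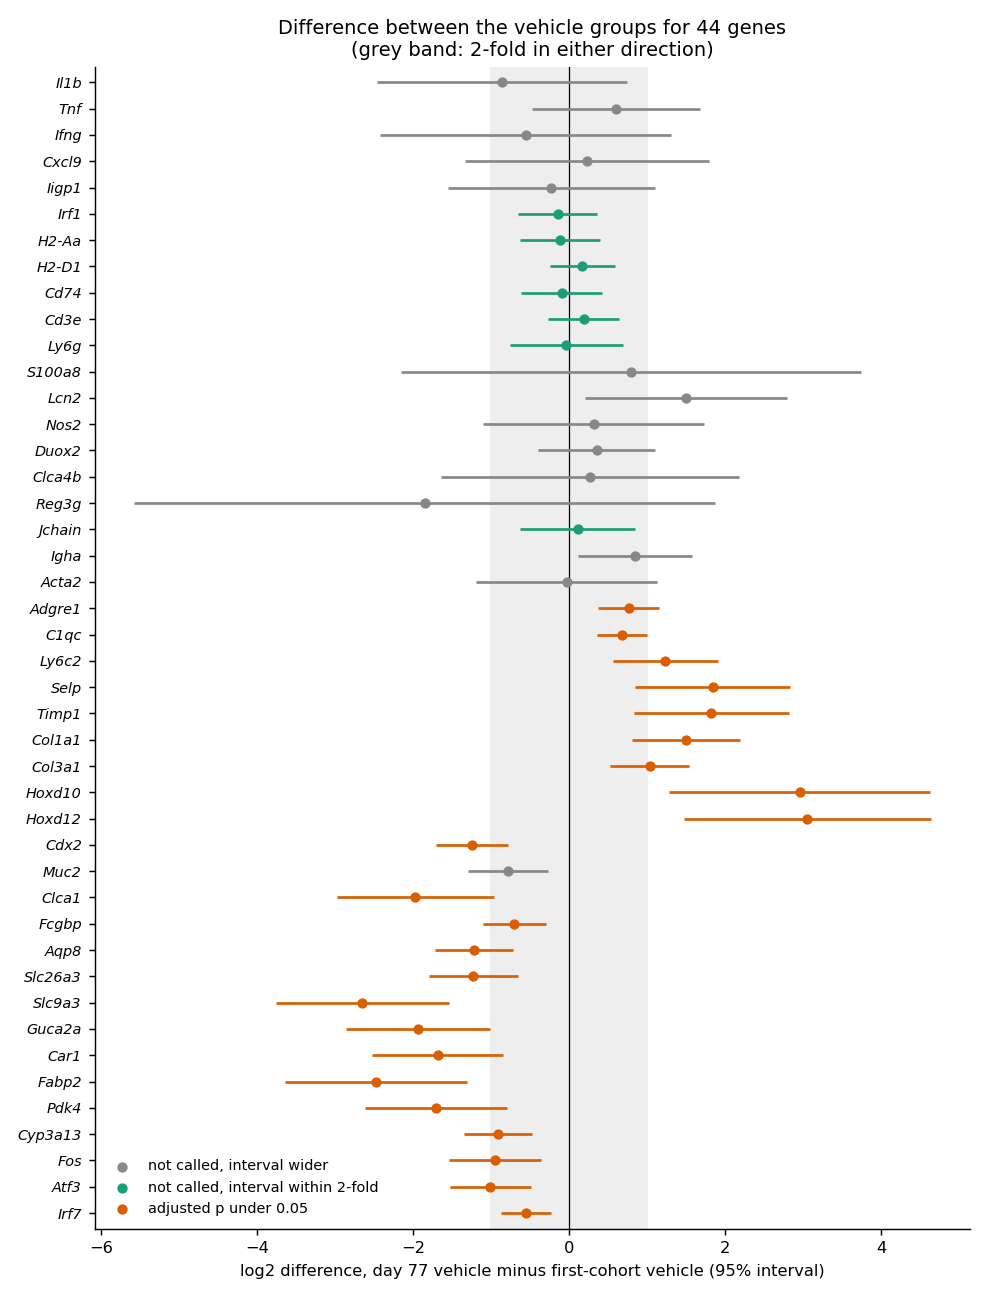
Log2 difference between day 77 vehicle (n = 5) and first-cohort vehicle (n = 10) for 44 genes, with its 95% interval. Orange marks genes called at an adjusted p under 0.05, green those not called with an interval inside the grey 2-fold band (for example Cd74, -0.61 to 0.43), grey those not called with a wider interval (for example S100a8, -2.16 to 3.75).

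The genes of acute epithelial and neutrophil inflammation could be placed on neither side. In level the neutrophil and epithelial response lists lay above all wild-type libraries in each of the 15, and they varied widely within the first cohort. None of 25 epithelial interleukin 22 and 17 response genes was called and 7 (28%) were bounded, against 71.8% of all genes. Of 13 neutrophil genes 1 was bounded and of 8 inflammatory cytokine genes 1. Reg3g, an antibacterial lectin, measured 9.11, 8.74, 350.5, 4.44 and 17.5 CPM at day 77 and 0.384 to 1945 CPM (median 24.7) in the first cohort, an interval of -5.58 to 1.87 on the log2 scale. S100a8, a subunit of neutrophil calprotectin, measured 19.2, 62.6, 412, 83.2 and 13.2 CPM and 0.153 to 537 CPM (median 8.22). In both genes day 77 replicate 3 was the high library of its group, and the group ranges overlapped.

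The cytokine gene Tnf was at 11.04, 18.3, 40.9, 18.8 and 16.0 CPM at day 77 and at 1.76 to 49.2 CPM (median 9.77) in the first cohort, and Il1b at 6.95, 5.09, 23.8, 13.3 and 5.37 CPM and 3.68 to 115 CPM (median 10.0). Their differences were 0.60 ± 0.51 and -0.86 ± 0.76 on the log2 scale, in opposite directions and not called. Il17a, Il22, Il6 and Il23a were too low to test; at day 77 none of them exceeded 0.672 CPM, while the highest first-cohort library held 7.56 CPM of Il17a, 4.03 of Il22, 1.85 of Il6 and 0.652 of Il23a. The oxidase gene Duox2 was steadier, with 718, 698, 1310, 840.4 and 622 CPM at day 77 and 102 to 1267 CPM (median 611) in the first cohort, and its interval, -0.40 to 1.10, reached just past 2-fold. Nos2, the inducible nitric oxide synthase, measured 426, 402, 1189, 525 and 256 CPM at day 77 and 7.21 to 1585 CPM (median 337) in the first cohort. Clca4b, a chloride channel regulator close to 0 in wild type (0.398 to 1.12 CPM (median 0.618)), measured 1452, 2748, 5232, 2108 and 1242 CPM at day 77 and 4.14 to 8009 CPM (median 1137) in the first cohort, where replicate 3 gave the lowest value. Lcn2, an iron-binding antimicrobial protein, and Saa3, a serum amyloid, differed by 1.503 ± 0.61 and 1.55 ± 0.74, and neither was called (adjusted p = 0.141 and 0.212). Without first-cohort replicate 2 Lcn2, Saa3 and the calprotectin subunit gene S100a9 each passed the threshold, higher at day 77, and S100a8 passed it with DESeq2. Without day 77 replicate 3 the log2 difference of Lcn2 was 0.41 and that of Saa3 0.45, and S100a9 went from 1.15 to -1.39.

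Genes of the absorptive epithelium differed between the groups. Of 21 colonocyte transport genes 9 were lower at day 77 and none higher, against 4.46% of all genes lower, and the list had a median log2 difference of -0.54. Aqp8 (chromosome 7, 123462291 to 123468004), a water channel of surface colonocytes, measured 535, 573, 252, 312 and 564 CPM in day 77 replicates 1 to 5. The first-cohort range was 653 to 1492 CPM (median 1036) and wild type gave 509 to 959.8 CPM (median 705), so every day 77 library lay below every first-cohort library. The log2 difference was -1.22 ± 0.24 (adjusted p = 0.00639).

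Slc9a3 (chromosome 13, 74121457 to 74169442), the apical exchanger of sodium for protons, measured 57.3, 31.96, 19.8, 25.1 and 44.7 CPM at day 77 and 35.4 to 576 CPM (median 219.8) in the first cohort, against 23.6 to 82.9 CPM (median 36.1) in wild type. It was lower at day 77 (log2 difference -2.65 ± 0.52, adjusted p = 0.00708), with 3 of 5 libraries below all of the first cohort. From wild type the first cohort differed by 2.27 and day 77 by -0.36 on the log2 scale, so the first cohort was the group away from wild type. The chloride and bicarbonate exchanger Slc26a3 showed another order: it was lower at day 77 (-1.23 ± 0.27, adjusted p = 0.012), with 523, 641, 177, 399 and 560.2 CPM at day 77, 623 to 1770 CPM (median 1054) in the first cohort and 935 to 1560 CPM (median 1341) in wild type. Guca2a, the peptide guanylin that regulates salt and water transport, measured 202, 109, 46.8, 106 and 174 CPM at day 77 and 181 to 952 CPM (median 412) in the first cohort (-1.94 ± 0.43, adjusted p = 0.0132). Car1, a carbonic anhydrase, measured 61.6, 98.7, 79.8, 24.4 and 92.9 CPM and 99.8 to 453 CPM (median 198) (-1.69 ± 0.40, adjusted p = 0.0164), and wild type lay at 289 to 645 CPM (median 414), above all of day 77 and overlapping the first cohort. The group had bounded members too: the potassium pump gene Atp12a differed by -0.10 (interval -0.93 to 0.73). Between 7 and 10 members were called lower whichever library was left out, and 9 with transcript length and GC content taken out.

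**Figure D3:**
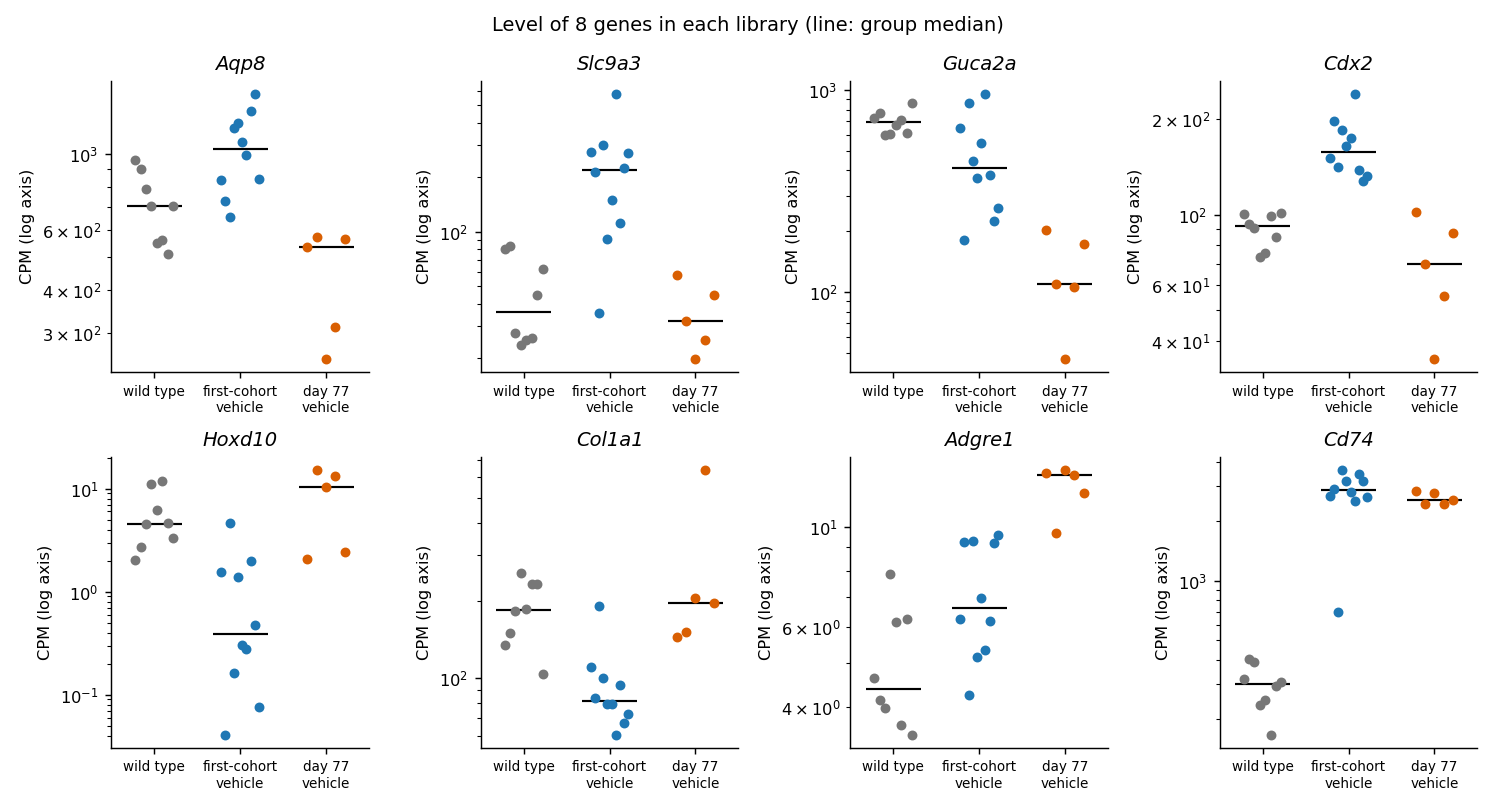
CPM of 8 genes in each library on a log axis, for wild type (grey, n = 8), first-cohort vehicle (blue, n = 10) and day 77 vehicle (orange, n = 5), with the group median as a line. Aqp8 and Cdx2 do not overlap between the vehicle groups, the 3 highest day 77 values of Hoxd10 lie above all first-cohort values, and Cd74 is alike in both, with first-cohort replicate 3 the lowest at 698.8 CPM.

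Fatty acid oxidation and ketone body genes, which serve the main fuel of colonocytes, were lower at day 77 for 7 of 19 tested, against 4.46% of all genes, and none was higher. Fabp2, an intracellular fatty acid carrier, measured 12.5, 7.14, 4.74, 3.66 and 19.1 CPM at day 77 and 20.5 to 153 CPM (median 40.4) in the first cohort, with no overlap (log2 difference -2.48 ± 0.55, adjusted p = 0.0126). Hadhb, a subunit of the mitochondrial trifunctional protein, had a smaller difference of -0.40 ± 0.10 (adjusted p = 0.018). Pdk4, the kinase that holds back glucose oxidation, differed by -1.71 ± 0.43 (adjusted p = 0.0228). Bounded members included the receptor gene Pparg (-0.12, interval -0.60 to 0.35). The count was 3 with scaling to total counts and 2 on log2(TPM + 1), and without day 77 replicate 4 it was 2, Hadhb and Pdk4 being among the calls lost.

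Of 20 drug and xenobiotic metabolism genes 4 were lower at day 77, against 4.46% of all genes, and none higher. Cyp2c65, a cytochrome P450, measured 0.548, 0.41, 0.457, 0.298 and 0.57 CPM at day 77 and 0.986 to 12.5 CPM (median 2.92) in the first cohort (log2 difference -2.91 ± 0.55, adjusted p = 0.00566), again without overlap. Cyp3a13 differed by -0.92 ± 0.20 (adjusted p = 0.0131), the glucuronosyltransferase gene Ugt2b34 by -0.63 ± 0.12 (adjusted p = 0.00515) and the efflux pump gene Abcb1a by -1.08 ± 0.31 (adjusted p = 0.0412). In wild type Abcb1a stood above both vehicle groups, at 476 to 758 CPM (median 551), while Cyp3a13, at 38.5 to 49.4 CPM (median 42.8), lay above all of day 77 and overlapped the first cohort. The Abcb1a call was lost in 17 of 28 alternative settings. The carboxylesterase gene Ces2e was bounded (-0.30, interval -0.85 to 0.24).

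Among 14 goblet cell genes 2 were lower at day 77, against 4.46% of all genes, and 9 (64.3%) were bounded, against 71.8%. The median log2 difference of the list from wild type was 0.51 in the first cohort and 0.12 at day 77. In list level day 77 spanned 7.68 to 8.30 (median 7.97), wild type 7.45 to 8.22 (median 7.87) and the first cohort 8.09 to 9.52 (median 8.55), so the first cohort stood further from wild type. Clca1, a protease secreted with mucus, measured 4052, 1193, 506, 761 and 2573 CPM at day 77 and 2615 to 14602 CPM (median 6522) in the first cohort (log2 difference -1.97 ± 0.47, adjusted p = 0.0184). Fcgbp, a mucus-crosslinking protein, measured 8036, 4899, 5395, 4998 and 6171 CPM and 6542 to 14059 CPM (median 9056) (-0.70 ± 0.19, adjusted p = 0.0318). In each gene 4 of the 5 day 77 libraries lay below all first-cohort libraries. Muc2, the main gel-forming mucin, measured 3277, 2236, 5101, 2426 and 2927 CPM and 3306 to 9374 CPM (median 5338) and just missed the threshold (-0.79 ± 0.24, adjusted p = 0.0535), which it passed in 12 of 28 settings. Retnlb, a goblet cell resistin induced by bacteria, and Ang4, a crypt ribonuclease, had large differences with wide errors, -2.50 ± 0.90 and -4.34 ± 1.71, and were not called. Without first-cohort replicate 7 they were -1.38 and -2.75, and Retnlb was called with DESeq2 and without first-cohort replicate 3. The goblet cell regulators were alike: Atoh1 and Spdef, chosen for their role after their values were seen, differed by 0.10 (interval -0.23 to 0.44) and -0.09 (interval -0.38 to 0.21). Neither Clca1 nor Fcgbp was called without day 77 replicate 2 or without replicate 4.

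Genes that mark position along the gut differed in both directions. Of 16 tested genes of the posterior Hox and colon identity list 4 (25%) were higher at day 77, against 4.22% of all genes. The list had 1 lower gene (6.25%, against 4.46%) and 8 bounded genes (50%, against 71.8%). Cdx2, the homeobox factor that maintains intestinal identity, measured 102, 70.0, 35.0, 55.2 and 87.7 CPM at day 77 and 127 to 239.7 CPM (median 158) in the first cohort, with no overlap, and 73.7 to 101 CPM (median 92.0) in wild type. It was lower at day 77 by a log2 difference of -1.24 ± 0.22 (adjusted p = 0.00392). In the posterior Hoxd cluster 4 genes, Hoxd9, Hoxd10, Hoxd11 and Hoxd12, were higher at day 77; Hoxd11 is named because it completes the count. Hoxd10 (chromosome 2, 74691924 to 74695105) measured 2.08, 15.2, 10.4, 13.4 and 2.44 CPM at day 77, 0.0411 to 4.68 CPM (median 0.389) in the first cohort and 2.04 to 11.8 CPM (median 4.58) in wild type, and Hoxd12 (chromosome 2, 74675013 to 74677705) 0.585, 14.6, 5.2, 10.5 and 0.597 CPM and 0.123 to 2.34 CPM (median 0.472). Replicates 2, 3 and 4 of day 77 carried the difference: they lay above all first-cohort libraries in both genes, and replicates 1 and 5 lay inside the first-cohort range. The log2 differences were 2.56 ± 0.63, 2.96 ± 0.79, 3.05 ± 0.86 and 3.05 ± 0.75 for the 4 genes in that order, with adjusted p between 0.0199 and 0.0376. Without day 77 replicate 2 no Hox gene of the list was called, and without replicate 4 Hoxd9, Hoxd10 and Hoxd12 were not. Other members, named after their values were seen, were bounded: the differences of Hoxa9, Hoxa10, Hoxa11 and Hoxa13 lay between -0.19 and 0.14.

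Several connective tissue genes were higher at day 77. Of 18 fibroblast and matrix genes 7 were called higher and none lower, against 4.22% of all genes higher, with a median of 0.60, and all 18 differences were above 0. Col1a1 (chromosome 11, 94936224 to 94953042), a chain of type I collagen, measured 144, 152, 205, 640.5 and 195 CPM at day 77, 60.6 to 189.9 CPM (median 81.7) in the first cohort and 104 to 255 CPM (median 184) in wild type. Replicate 4 was by far the highest library, and 3 of the 5 lay above the whole first cohort (log2 difference 1.496 ± 0.33, adjusted p = 0.0121). From wild type the first cohort differed by -0.97 and day 77 by 0.55, so it was the first cohort that stood below wild type. Col1a2, Col3a1 and the collagen-binding protein Sparc differed by 1.27 ± 0.26, 1.03 ± 0.24 and 1.01 ± 0.24. Timp1, an inhibitor of matrix proteases, measured 2.34, 3, 6.44, 10.7 and 2.06 CPM at day 77 and 0.151 to 2.51 CPM (median 1.39) in the first cohort (1.82 ± 0.47, adjusted p = 0.026), and the protease gene Mmp2 differed by 0.63 ± 0.17 (adjusted p = 0.0348). Without day 77 replicate 4 the 7 calls of the list fell to 1, and without first-cohort replicate 3, the library near wild type, they were 14. The Timp1 call was also lost without day 77 replicate 3, and that of Mmp2 in 12 of 28 settings.

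Of 19 macrophage and monocyte genes 5 were higher at day 77 and none lower, against 4.22% of all genes higher, with a median of 0.66. Adgre1, the F4/80 antigen of macrophages, measured 13.2, 9.68, 13.3, 13.0 and 11.9 CPM at day 77 and 4.26 to 9.57 CPM (median 6.61) in the first cohort, with no overlap (log2 difference 0.76 ± 0.18, adjusted p = 0.0188). Ly6c2, a marker of inflammatory monocytes, measured 34.5, 40.6, 60.2, 31.97 and 32.6 CPM and 4.57 to 35.5 CPM (median 15.0) (1.23 ± 0.32, adjusted p = 0.0261), and 1.94 to 4.42 CPM (median 3.03) in wild type. The complement genes C1qa and C1qc, made by resident macrophages, differed by 0.70 ± 0.19 and 0.68 ± 0.15, and the mannose receptor gene Mrc1, the fifth called gene, by 0.83 ± 0.25. The markers Cd68, Csf1r, Cx3cr1 and Lyz2, named after their values were seen, were bounded between 0.21 and 0.29. With the 4 acinar-positive first-cohort libraries left out none of the 5 was called, and without day 77 replicate 1 there were 2 calls. In bulk tissue more cells of a type and more RNA per cell cannot be told apart.

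**Figure D4:**
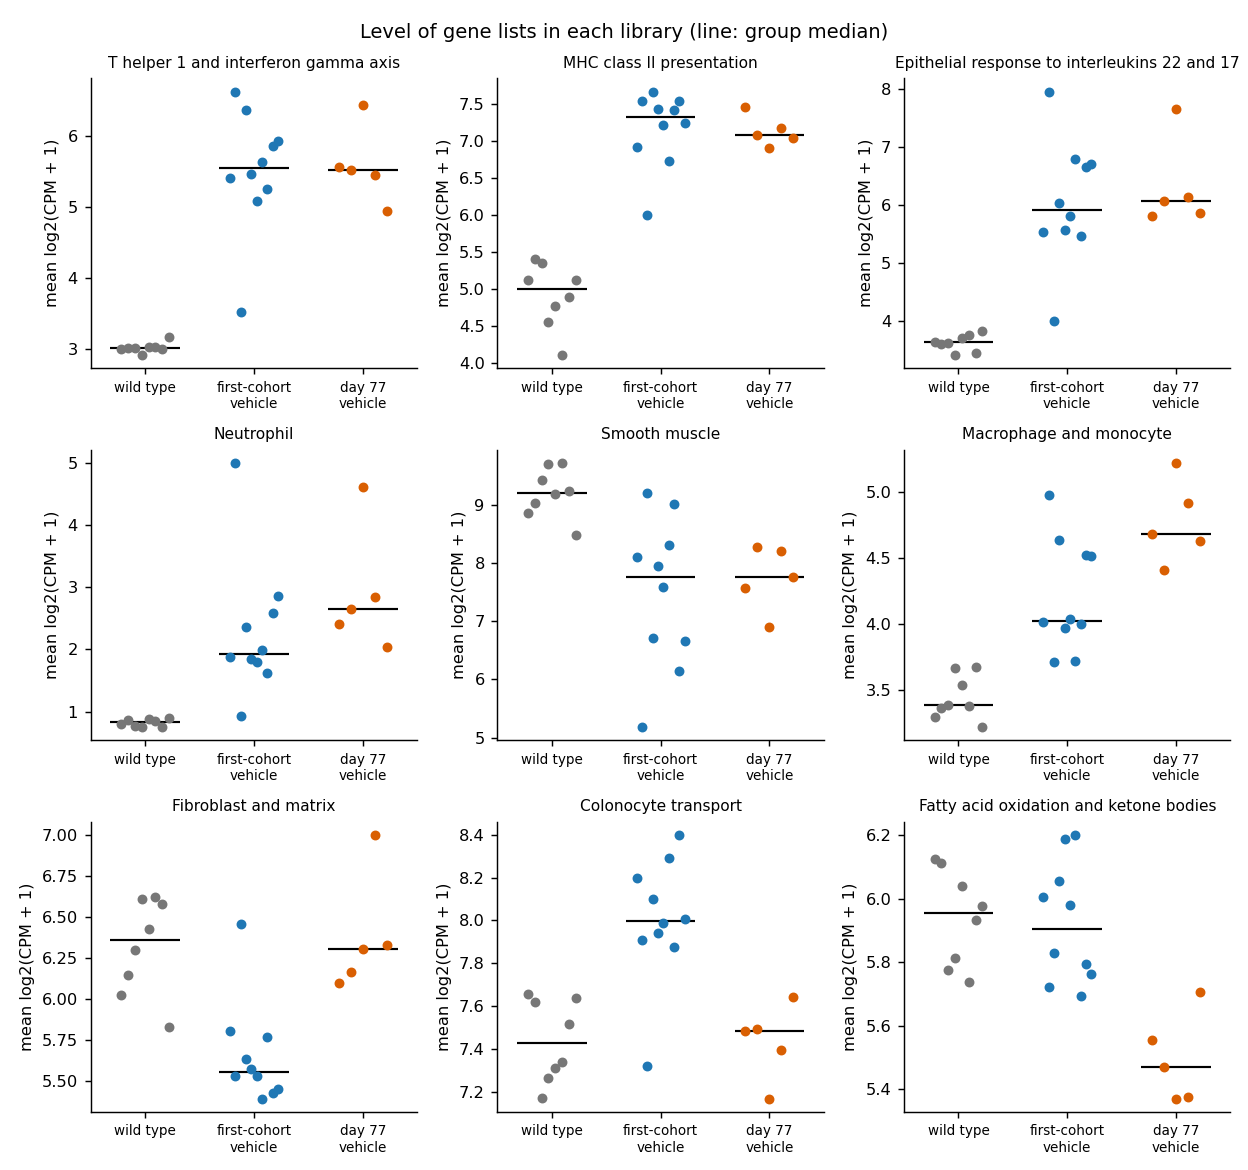
Level of 9 gene lists in each library, averaging log2(CPM + 1) over members that were tested, for wild type (grey, n = 8), first-cohort vehicle (blue, n = 10) and day 77 vehicle (orange, n = 5), with group medians as lines. The T helper 1 list spans 4.93 to 6.43 (median 5.52) at day 77 and 3.53 to 6.62 (median 5.55) in the first cohort, while in the fibroblast list the first cohort lies low (5.39 to 6.46 (median 5.55)) and day 77 (6.10 to 7.002 (median 6.31)) overlaps wild type (5.83 to 6.62 (median 6.36)).

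Muscle and nerve genes were lower than wild type by list median in both groups, and most were neither called nor bounded between them. In each list all 5 day 77 and 8 of the 10 first-cohort libraries had a list level below all wild-type libraries. Of 14 smooth muscle genes none was called, against 8.69% of all genes, with a median log2 difference of -0.10. The list medians from wild type were -1.28 in the first cohort and -1.39 at day 77. Acta2, smooth muscle actin, measured 416, 684, 241, 635 and 469 CPM at day 77, 64.8 to 1292 CPM (median 442) in the first cohort and 774 to 1944 CPM (median 1252) in wild type. Only 2 members (14.3%), Cald1 and Smtn, were bounded, against 71.8% of all genes. The SD of the smooth muscle list level was 1.29 in the first cohort and 0.55 at day 77. None of the 16 enteric neuron and glia genes was called or bounded, against 8.69% and 71.8% of all genes. The glial factor gene Sox10 measured 1.39, 1.35, 0.208, 1.12 and 1.25 CPM at day 77 and 0.0407 to 3.8 CPM (median 0.679) in the first cohort.

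The day 77 libraries also differed less from each other for several inflammatory lists, with SDs of the list level of 0.54 against 0.85 for the T helper 1 list and 0.21 against 0.50 for MHC class II. For other lists the order was the reverse, among them heat shock genes, 0.89 against 0.48, and B cell and follicle genes, 0.98 against 0.69. Further ones were hypoxia and glycolysis, 0.51 against 0.35, regenerative epithelium, 0.39 against 0.26, and immediate early genes, 0.26 against 0.14. These spreads were not tested, and the first-cohort values include replicates 2 and 3.

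Among stress and signalling genes, 3 of 20 immediate early genes were lower at day 77, against 4.46% of all genes, and 1 without day 77 replicate 1. Fos, a transcription factor induced within minutes of a stimulus, measured 70.1, 93.5, 245, 122 and 68.9 CPM at day 77 and 143 to 299 CPM (median 218) in the first cohort (-0.95 ± 0.28, adjusted p = 0.0428), a call lost in 15 of 28 settings. Atf3 and Klf6 differed by -1.01 ± 0.24 and -0.73 ± 0.17, calls lost without day 77 replicate 1 or 5 for Atf3 and without replicate 2 for Klf6. Of 23 type I interferon genes 1 was called, a share near the 4.46% of all genes called lower: the transcription factor gene Irf7 was lower at day 77 (-0.55 ± 0.15, adjusted p = 0.031), with 112, 121, 144, 117 and 97.0 CPM against 108 to 213 CPM (median 181), and 21 of the 23 differences lay below 0. Hbegf, a growth factor of regenerating epithelium, was lower (-0.89 ± 0.24, adjusted p = 0.0325). Selp, the selectin that lets leukocytes roll on endothelium, was higher (1.84 ± 0.47, adjusted p = 0.0239), with 4.5, 1.15, 4.16, 4.89 and 0.678 CPM against 0.25 to 2.14 CPM (median 0.77), as was Alox5ap, a protein of leukotriene synthesis (0.90 ± 0.23, adjusted p = 0.0273). Hbegf was the only called gene of 13 in the regenerative epithelium list, and Selp the only one of 9 in the leukocyte adhesion list. Alox5ap was the only one of 10 in the tuft cell list, where 9 differences lay below 0 (median -0.70). The called shares of these lists, 7.69%, 11.1% and 10%, lay near the 8.69% of all genes. The calls of Selp and Alox5ap were lost without day 77 replicate 1, 3 or 4. That of Irf7 was lost without replicate 1, 2, 4 or 5, and that of Hbegf in 8 of 28 settings.

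Apart from colitis genes, the largest differences with no overlap included genes of short transcripts and genes that share sequence with others. The mitochondrial gene mt-Nd4l, which overlaps mt-Nd4, measured 219, 249, 424, 309.5 and 397 CPM at day 77 and 19.4 to 53.6 CPM (median 32.9) in the first cohort (3.20 ± 0.22, adjusted p = 7.61e-07), and mt-Co2 differed by 1.22 ± 0.23. The genes mt-Nd5 and mt-Nd6, which overlap on opposite strands, were lower (-0.47 ± 0.11 and -1.01 ± 0.17). The ribosomal protein genes Rps28, Rps2 and the retrocopy Rps27rt were higher by 1.48, 1.32 and 1.45, and Gm10282, Gm20390 and Gm20458 by 1.55, 1.61 and 1.77; reads of all of these can be divided with near-identical or overlapping genes, so their values are uncertain. The histone genes Hist1h2bk and Hist2h2aa1 moved in opposite directions, 1.92 ± 0.27 and -3.49 ± 0.51. Mt2, a metal-binding stress protein, was higher at day 77, with 78.4, 88.4, 103, 53.3 and 64.9 CPM against 18.9 to 35.6 CPM (median 25.7) (1.505 ± 0.17, adjusted p = 0.000123). Wdr89 was higher by 1.44.

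By the rule used here (protein-coding, no overlap, mean of at least 5 CPM), the lower gene with the largest difference was Cela2a, an acinar elastase, at 0.285 to 1762 CPM (median 3.14) in the first cohort, and its call was lost in 12 of 27 settings, among them each that left out a day 77 library. After it and the histone gene came Isx (-3.33 ± 0.70), an intestinal homeobox factor that controls vitamin A uptake, Mal (-3.26 ± 0.74), a protein of apical membrane traffic, and Dpep1 (-2.88 ± 0.47), a brush border dipeptidase. Dpep1 measured 22.8, 8.29, 6.98, 9.55 and 30.3 CPM at day 77 and 61.9 to 283 CPM (median 85.8) in the first cohort, against 43.1 to 117 CPM (median 56.8) in wild type. Mettl7b, Zfp871 and Homer2 were lower by log2 differences of -1.93, -1.88 and -1.69. Alpi, the intestinal alkaline phosphatase of the brush border, was lower too (-2.55 ± 0.64, adjusted p = 0.0225, not called without any 1 of day 77 replicates 1 to 4), with 0.987, 0.985, 0.624, 0.597 and 3.31 CPM against 1.23 to 25.2 CPM (median 6.61) and 0.647 to 2.03 CPM (median 1.39) in wild type.

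The differences moved with transcript length and base composition. Over 5 equal groups of genes by length of the longest annotated transcript the median log2 difference went from 0.12 in the shortest to -0.13 in the longest, with 309 genes higher and 71 lower in the shortest and 58 higher and 327 lower in the longest. Over 5 groups by GC content it went from -0.14 to 0.13. Of 80 ribosomal protein genes, short transcripts of every cell, 50 (62.5%) were higher at day 77 and none lower. Of 348 processed pseudogenes 51 (14.7%) were higher and 10 (2.87%) lower, while 4.22% of all genes were higher and 4.46% lower. With a smooth trend on length and GC content taken out of each library, an alternative chosen after seeing the data, 967 genes were called in place of 1457. On the same terms 9 colonocyte transport, 5 fatty acid oxidation, 5 fibroblast and 3 macrophage genes were called in the stated direction, and the ribosomal protein list of 18 genes had 6 in place of 12; it had 8 without the acinar-positive libraries.

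**Figure D5:**
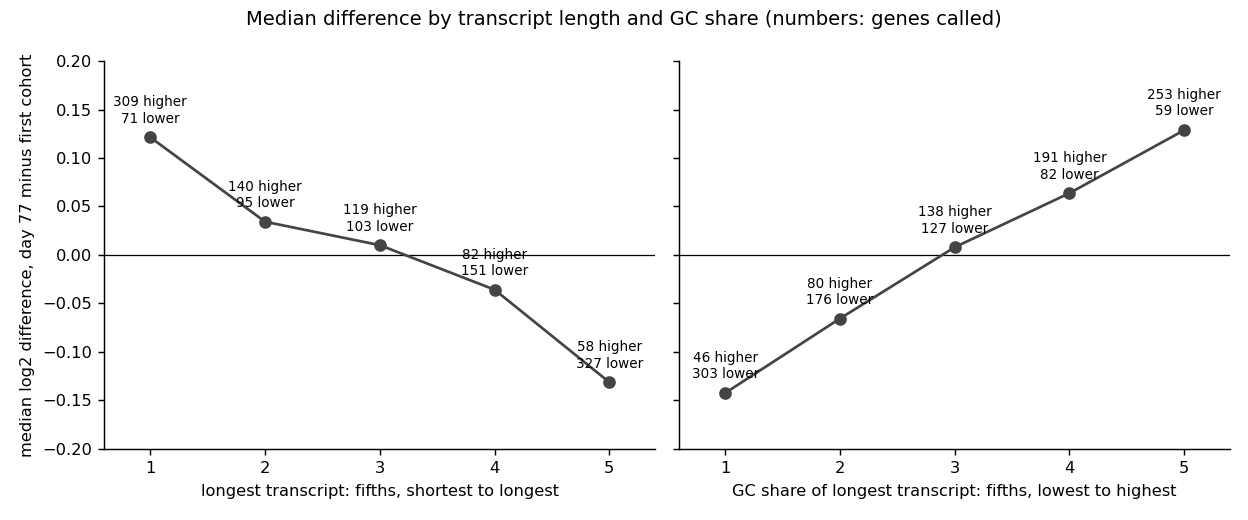
Median log2 difference between day 77 and first-cohort vehicle over 5 equal groups of the genes tested, by length (left) and GC content (right) of the longest annotated transcript, with the number of genes called higher and lower. The median falls from 0.12 to -0.13 with length and climbs from -0.14 to 0.13 with GC content.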

How the data were processed

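Poly(A)-enriched RNA of distal colon was sequenced, per the labels. Tools named, without roles, in the submitters' processing notes are STAR 2.7.8a, RSEM 1.3.3, cutadapt 3.7 and DESeq2 1.30.1, with the build mm10; annotation and strand setting are not given in the sources used here. For each cohort the authors deposited a table of estimated counts, not normalized. The authors also deposited TPM for the same libraries, scaled to length and depth, used here only as an alternative.

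Of 50600 identifiers 50376 matched GENCODE M21 (GRCm38), the source of symbols and coordinates. Estimated counts were rounded and tested with edgeR 4.0.16 under R 4.3.3: quasi-likelihood with robust estimates, TMM scaling, its default filter, and the 15 vehicle libraries alone. Genes were called at a Benjamini-Hochberg adjusted p under 0.05, over all genes tested. Differences are day 77 minus first cohort, with SE and 95% interval from the fit. Displayed CPM use TMM over the vehicle and wild-type libraries. A list level is the mean log2(CPM + 1) of its tested members. limma 3.58.1 and DESeq2 1.42.0 served as alternatives.

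The comparison, gene lists and core genes were chosen with earlier results of these data known. Besides the core genes, the named genes are the 10 largest called, non-overlapping protein-coding differences in each direction with a mean of at least 5 CPM, up to 4 called and 2 narrowly bounded colitis genes of each list, and the 5 highest bounded colitis genes; others are marked. Replicates were numbered by deposition and are unpaired. The 4 tables of the authors' own comparisons were not used, and a few list members are not reported here. The precision rests on 5 against 10 libraries, and limits from 0 counts cover counting error only.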

Additional observations from a re-analysis of the deposited data

Results flagged for a closer look

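Among 344 groups of libraries examined (lists and named genes in each vehicle group), 52 had an end library separated from the others by more than Dixon's 95% value, 15 for lists and 37 for genes. Chance flags about 1 in 20 groups. The lists and genes share libraries, so these flags are not independent. First-cohort replicate 3 accounted for 21 of them, day 77 replicate 3 for 13 and first-cohort replicate 2 for 10. Each value below is followed by the next nearest library of the same group.

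First-cohort replicate 3, the library nearest wild type, was lowest in list level, as mean log2(CPM + 1), for T helper 1 and interferon gamma axis (3.53, next 5.08), MHC class I presentation (6.11, next 7.40) and Colonocyte transport (7.32, next 7.88), and highest for Fibroblast and matrix (6.46, next 5.80). It was the lowest in CPM for Iigp1 (5.64, next 61.4), Clca4b (4.14, next 422), Duox2 (102, next 456), Duoxa2 (12.9, next 74.9), Nos2 (7.21, next 194), Irf1 (133, next 261), Tnip3 (31.5, next 72.6), H2-Eb1 (124, next 310.4), H2-Aa (185, next 546), Psme1 (95.2, next 201), H2-T23 (163, next 266), Irf9 (38.2, next 66.4), Ces2e (101, next 208), Cd74 (699, next 2532) and H2-D1 (648, next 1415). It was the highest in CPM for Col1a1 (189.9, next 111) and Sparc (214, next 132).

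First-cohort replicate 2 was highest in list level for Interleukin 12, 23 and 17 axis (4.29, next 3.77), Inflammatory cytokines (4.62, next 2.77), Neutrophil (4.996, next 2.87), Matrix metalloproteinases (4.82, next 3.42) and Regenerative epithelium (5.57, next 5.11). In CPM it was highest for Ifng (9.86, next 2.07), Il1b (115, next 12.3), S100a9 (269.6, next 16.2), Adm (48.2, next 17.4) and Egr2 (6.99, next 3.09). Replicate 1 was highest in list level for Heat shock (8.09, next 7.11), and replicate 7 highest in CPM for Retnlb (1155, next 145) and Cyp2c65 (12.5, next 3.9).

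Day 77 replicate 3 was highest in list level for Epithelial response to interleukins 22 and 17 (7.65, next 6.13), Type I interferon response (5.57, next 4.80), Regenerative epithelium (5.51, next 4.77) and Heat shock (8.69, next 6.94). In CPM it was highest for Ifng (3.91, next 0.746), Cxcl9 (142, next 30.3), Gm20458 (39, next 23.9), Tnip3 (212, next 104), Irf9 (88.8, next 68.5), Pdpn (19.9, next 11.9), Ier3 (27.4, next 12.6) and H2-D1 (2508, next 1701), and lowest for Sox10 (0.208, next 1.12). Replicate 4 was highest for Fibroblast and matrix (7.002, next 6.33) in list level and for Col1a1 (640.5, next 205) in CPM, and lowest in CPM for Arntl (36.8, next 53). Replicate 5 was highest in CPM for Hist2h2aa1 (3.94, next 0.768) and Alpi (3.31, next 0.987).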

How the results depend on the processing

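No paired analysis was possible because replicate numbers follow the deposited order and nothing in the labels ties libraries across the cohorts. With DESeq2 2271 genes were called, 1270 of them lower, and 96 and 29 genes of the higher and lower reference sets. With limma on log2(TPM + 1) 873 genes were called (551 higher, 322 lower), with 34 and 8 in the reference sets and 233 bounded in the lower set. On log2(TPM + 0.1) 863 were called (533 higher, 330 lower), with 34 and 8 and 73 bounded. Without the expression filter 30 and 7 reference genes were called, and with limma voom 35 of the higher set. Scaling to total counts gave 856 higher and 518 lower, against 708 and 749. A margin of 1.5-fold left 7625 genes bounded. A reference from the 10 mg/kg group gave 625 bounded higher genes, and 38 called and 450 bounded lower genes. Of 2 alternatives added after seeing the data, the length and GC offset gave 967 calls, 455 of them higher, and leaving out the acinar-positive libraries gave 410 higher. Leaving out 1 library at a time gave 650 to 1960 calls, 321 to 848 higher, 329 to 1112 lower and 11356 to 12094 bounded. In the same runs the higher reference set had 19 to 100 called and 257 to 353 bounded, and the lower set 3 to 31 and 94 to 168. Of 67 called named genes 29 kept the call in all 28 settings, 17 lost it in 1 to 3 and 21 in 4 or more; of 66 uncalled, 7 were called in at least 1 setting, and none of the 133 reversed a called direction.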
